A study of Rattus norvegicus with 12 samples.

Results

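Protein processing in the endoplasmic reticulum is the route by which secreted and membrane proteins are threaded into the reticulum, glycosylated, folded, exported or destroyed. The genes described here are those whose pathway annotation in the deposited table held the term "Protein processing in endoplasmic reticulum" and did not also hold "Cell cycle". They were 157 of the 22601 genes in the table, selected by this annotation alone, with no measured value in the rule. The term was carried by 160 genes in all, and Cul1, Rbx1 and Skp1, subunits of a ubiquitin ligase that also acts in the cell cycle, were the 3 left out. Of the 157 genes, 143 reached 1 FPKM (fragments per kilobase of transcript, scaled to the mapped fragments of the library) in at least 3 libraries and were tested, among the 12633 genes of the whole table that met the same filter.

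The study made a drill defect in the distal femur of 8 weeks old Sprague Dawley rats and sequenced polyadenylated RNA from tissue labelled bone 2 weeks later. The paper describes this material as newly formed tissue in Control. In the scaffold groups it was the niche made up of scaffold, cells and regenerated tissue. The material sampled thus differed between Control and every scaffold group. The Hydrogel group received a printed gelatin methacrylate (GelMA) scaffold, the PCL group a polycaprolactone scaffold and the β-TCP group a beta-tricalcium phosphate ceramic scaffold, while the Control group had the same defect with no scaffold. No group was undrilled bone, so all 4 groups share the injury and the time after it, and each had 3 libraries. The sources used here do not state that each library came from a different rat, so the p-values measure the spread between these libraries. Whole fragments recovered from the steps of the FPKM gave 15035925 to 17357830 fragments per library.

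In the endoplasmic reticulum, the Sec61 channel lets nascent chains through the membrane, oligosaccharyltransferase attaches glycans to them, and Hsp70 and Hsp90 chaperones, lectin chaperones and disulfide isomerases fold them before COPII coats carry them to the Golgi. Chains that fail to fold are pulled back into the cytosol by Vcp and degraded by the proteasome, a route called ER-associated degradation (ERAD). When misfolded chains build up, the sensors Ern1, Eif2ak3 and Atf6 start the unfolded protein response, which raises chaperone transcription through Xbp1, Atf6 and Atf4. In healing bone this machinery serves osteoblasts, fibroblasts and chondrocytes, which secrete collagen in bulk.

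The transcription arm of that response acts through short promoter elements. Promoter windows from RefSeq (rat build GRCr8, 250 bases before to 50 bases after the annotated start) were found for 128 of the 157 genes. The ER stress response element (ERSE, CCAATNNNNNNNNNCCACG, either strand) was present in 8 of these 128 windows (6.25%) and in 21 of all 27457 windows (0.076%). Its second form (ERSE-II, ATTGGNCCACG) was in 3 windows (2.34%), against 15 of all (0.055%). The core of the Xbp1 element (TGACGTGG) was in 9 (7.03%), against 175 of all (0.637%), and in Hyou1, a lumenal Hsp70 relative, it overlapped an ERSE-II match. The core of the amino acid response element (TGATGNAAN) was in 4 (3.12%), against 1044 of all (3.802%). A match is a description of these letters and not a measured binding site.

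The windows of the following genes are shown because they carry the ERSE or ERSE-II and their transcripts are described below. Each is written 5′ to 3′ on the gene's strand in GRCr8, with the element in capitals and the flanking bases in lower case.
Hspa5, chr3:38452953-38453011: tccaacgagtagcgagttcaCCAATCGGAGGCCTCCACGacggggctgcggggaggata
Hsp90b1, chr7:23012431-23012489: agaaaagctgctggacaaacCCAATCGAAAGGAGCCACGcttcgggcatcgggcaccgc
Xbp1, chr14:84604538-84604596: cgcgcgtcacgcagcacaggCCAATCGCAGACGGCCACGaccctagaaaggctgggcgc
Canx, chr10:35158049-35158107: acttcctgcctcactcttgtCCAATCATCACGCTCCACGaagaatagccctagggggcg
Calr, chr19:40213117-40213173: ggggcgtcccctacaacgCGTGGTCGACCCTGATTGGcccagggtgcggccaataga
Herpud1, chr19:10614801-10614851: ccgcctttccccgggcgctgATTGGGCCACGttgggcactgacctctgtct
In Calr the element lies on the other strand and so reads from CGTGG to ATTGG, while the matches printed for the other 5 genes lie on their own strand. Hsp90b1 holds a second ERSE, on the other strand at positions -72 to -54, which is not printed. Relative to the annotated start, the printed element spans positions -43 to -25 in Hspa5, -176 to -158 in Hsp90b1, -65 to -47 in Xbp1, -230 to -212 in Canx, -232 to -214 in Calr and -124 to -114 in Herpud1.

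The 157 genes together made up a small share of the transcriptome. They summed to 8336, 8832 and 8484 FPKM in the Hydrogel libraries, 8689, 8377 and 8103 FPKM in the PCL libraries, 8719, 8964 and 8958 FPKM in the β-TCP libraries and 8736, 8482 and 8973 FPKM in the Control libraries, so the groups overlapped in this sum. As a share of all FPKM the sum was 1.73% ± 0.118 in Hydrogel, 1.64% ± 0.206 in PCL, 1.94% ± 0.0404 in β-TCP and 2.03% ± 0.235 in Control (SD, n = 3 each). Single libraries ran from 1.42% in PCL 3 to 2.29% in Control 3, the libraries with the most and the least hemoglobin RNA. With the 12 hemoglobin genes taken out of the total it was 2.06% ± 0.0208 in Hydrogel, 1.99% ± 0.0656 in PCL, 2.03% ± 0.00577 in β-TCP and 2.21% ± 0.0889 in Control, and every Control library (2.14% to 2.31%) then lay above every scaffold library (1.92% to 2.08%). The sum of all FPKM differs between libraries, so a share can separate groups whose sums overlap. This separation is therefore one of shares and not of the members' summed FPKM.

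Single members varied less across the 12 libraries than genes at large. The median range of a tested member was 0.625 on the log2(FPKM + 1) scale, against 0.934 for all tested genes, and its median within-group SD was 0.155 against 0.226. A range above 1 was seen for 29 of the 143 tested members (20.3%), against 45.6% of all tested genes. The members were also more abundant, with a median level of 33.6 FPKM against 10.6 FPKM for all tested genes.

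The 14 members that were not tested included Sec31b, Sel1l2, Ube2d4, Fbxo2, Cryaa, Dnajc5b, Dnajc5g, Hspa1a, Hspa1l, Hspa4l, Lman1l, Mapk10 and Gcs1. Sec31b is a close relative of the tested coat subunit Sec31a, and Hspa1a, the heat-inducible Hsp70, has a near-identical copy that can share its reads. Sel1l2 and Ube2d4 were listed at 0 in all 12 libraries. The lens chaperone Cryaa was at 0.15, 3.41 and 2.01 FPKM in the β-TCP libraries and at most 0.663 FPKM in any other library.

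Libraries within a group did not behave alike. Hemoglobin genes took 18%, 10% and 19% of the FPKM in the Hydrogel libraries, 10.7%, 16.9% and 25.8% in the PCL libraries, 7.41%, 3.65% and 3.49% in the β-TCP libraries and 9.23%, 14.6% and 1.03% in the Control libraries. Control 3 also held the most bone and cartilage matrix RNA, with 4.01% of its FPKM in cartilage matrix genes, against 0.590% to 0.619% in the other Control libraries and 0.0397% to 0.260% in the 9 scaffold libraries. It was the highest of the 12 libraries for 38 of the 143 tested members (26.6%, against 14.4% of all tested genes) and the lowest for 50 (35.0%, against 47.6%). Skeletal muscle markers took 0.0921% of the FPKM in Hydrogel 3, 0.0578% in PCL 1 and 0.0404% in PCL 3, against 0.00295% to 0.00983% in the other 9 libraries, and adipocyte markers took 0.143% to 0.272% in PCL, 0.0330% to 0.0603% in Hydrogel, 0.0660% to 0.148% in β-TCP and 0.0227% to 0.0533% in Control. The adipocyte list was divided in PCL against Control. Of its 6 tested markers Fabp4 and Lpl were higher and 4 were lower, with a median log2 fold change of -0.53. β-TCP 2 and 3 lay much closer to each other than any other pair of a group, with a chi-square of 2.18 per gene between their recovered fragments against 31.9 to 318 in the other 11 pairs. They were kept as 2 libraries, and results with their mean as 1 library are given below. All 9 osteoblast markers passed the filter in this tissue labelled bone, and summed to between 0.916% and 4.52% of the FPKM of a library. In such bulk tissue, fewer cells of a type and less RNA per cell cannot be told apart.

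**Figure D1:**
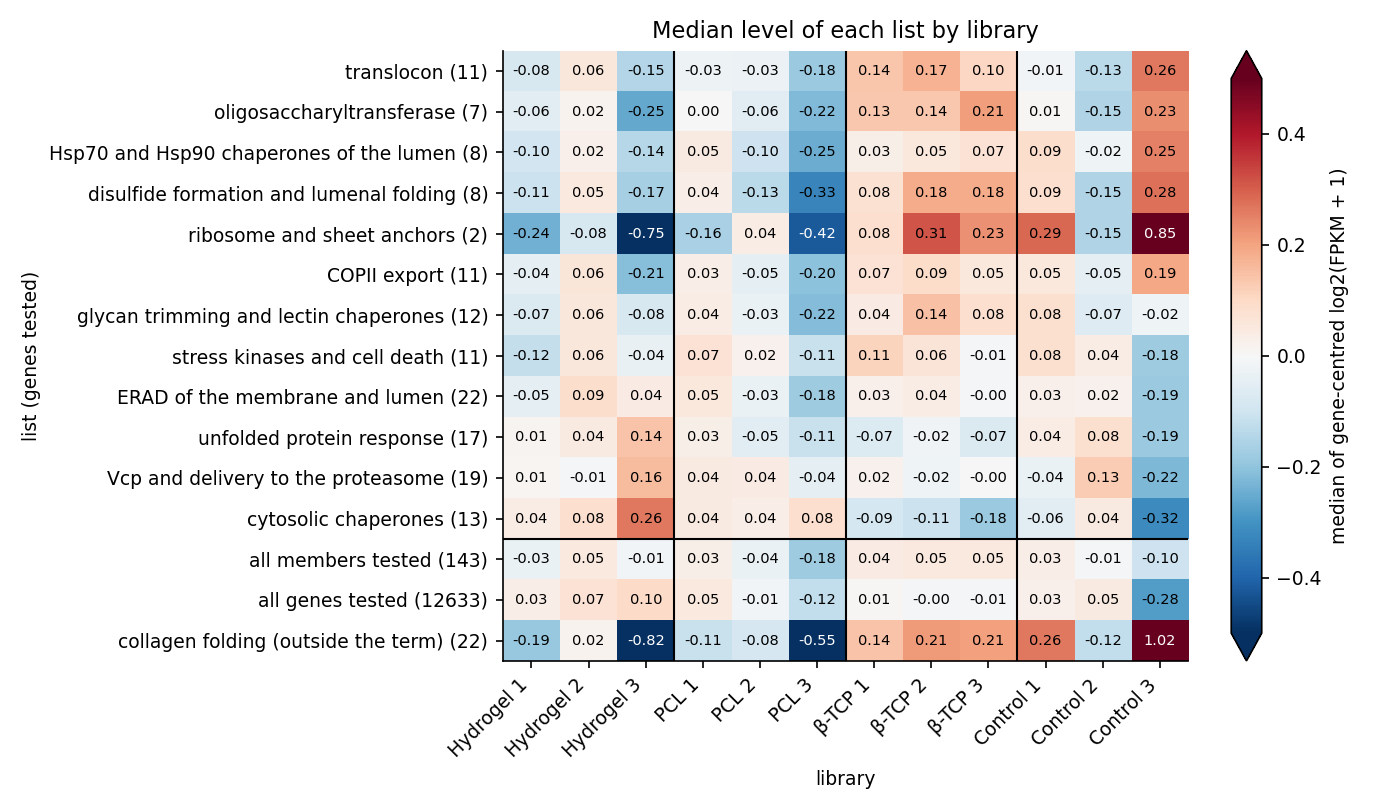
Median level of the tested genes of each role in each library, as the log2(FPKM + 1) level minus the gene's mean over the 12 libraries (rows, roles and, below the line, all members, all tested genes and collagen folding genes outside the term; columns, libraries by group; color, log2 difference). In Control 3 disulfide formation is high (median 0.28), the cytosolic chaperones are low (-0.32) and the lectin chaperones are near their mean (-0.02), and Hydrogel 3 has disulfide formation low (-0.17) and the cytosolic chaperones high (0.26).

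The genes were divided by role into 12 groups plus 3 unassigned genes, and the roles of the heat map did not follow one direction. The translocon role as counted here also includes the membrane sorting protein Bcap31, which was lowest in Control 3. Control 3 was the highest of all 12 libraries for 8 of 11 translocon genes and the lowest for 2, the highest for 5 of 7 oligosaccharyltransferase genes and 5 of 8 lumenal Hsp70 and Hsp90 genes and the lowest for 0 of either, and the highest for 5 of 8 disulfide genes and the lowest for 2. The glycan trimming and lectin chaperone genes did not follow, with 2 of 12 highest and 3 of 12 lowest in Control 3. For the cytosolic chaperones it was the highest in 0 of 13 and the lowest in 7 of 13. PCL 3, with the most hemoglobin RNA, was the lowest of all libraries for 43 of the 143 members (30.1%, against 17.7% of all tested genes), including 6 of the 8 lumenal Hsp70 and Hsp90 genes.

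The comparison of β-TCP with Control asked how the ceramic scaffold altered the healing defect. Erp29, a lumenal protein that helps secretory proteins fold, and Bcap31, a membrane protein that sorts clients leaving the reticulum, rose, and Herpud1, a membrane component of ERAD, fell. These were the 3 of 143 members (2.10%) that passed an adjusted p under 0.05 (limma, Benjamini-Hochberg over all tested genes), against 4.78% of all tested genes.

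Erp29 stood at 105, 119 and 120 FPKM in the β-TCP libraries, against 79.1, 75.9 and 63.8 FPKM in the Control libraries. The groups did not overlap, and the log2 fold change was 0.65 (SE 0.129, adjusted p = 0.0246, limma). Hydrogel was at 84.0, 90.3 and 84.8 FPKM, all above Control (adjusted p = 0.312, limma), and PCL at 94.1, 80.0 and 69.6 FPKM, overlapping Control (adjusted p = 0.542, limma).

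Bcap31 had 75.6, 86.4 and 90.1 FPKM in the β-TCP libraries, against 66.5, 61.0 and 56.8 FPKM in the Control libraries. Every β-TCP library was above every Control library (log2 fold change 0.45, SE 0.111, adjusted p = 0.0475, limma). The PCL libraries, at 77.7, 69.2 and 69.9 FPKM, were also all above Control without passing the test.

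Herpud1, whose promoter carries the ERSE-II printed above, was at 26.1, 29.2 and 31.0 FPKM in the β-TCP libraries, against 39.8, 43.5 and 39.1 FPKM in the Control libraries. The groups did not overlap (log2 fold change -0.49, SE 0.120, adjusted p = 0.0455, limma). PCL was at 33.7, 32.3 and 28.2 FPKM (log2 fold change -0.37 against Control, adjusted p = 0.192, limma), and Hydrogel, at 33.9, 41.5 and 42.8 FPKM, overlapped Control.

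These calls were not firm. With the mean of β-TCP 2 and 3 as 1 library, 0 of the 3 passed, at adjusted p = 0.121 for Erp29, 0.206 for Bcap31 and 0.148 for Herpud1 (limma), and on recovered fragments limma-voom called only Erp29 (adjusted p = 0.0297). Leaving out 1 library gave 7 called members without Control 3, 1 without Control 1, and 0 without Control 2, β-TCP 2 or β-TCP 3.

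Macrophage marker RNA also differed between these 2 groups, although β-TCP 1 lay close to Control 1. All 11 markers passed the filter, and 10 were higher and 1 lower in β-TCP than in Control. Of these, 8 were higher at an adjusted p under 0.05 (limma), which 4.78% of all tested genes passed in either direction. The markers summed to 0.947%, 2.14% and 2.15% of the FPKM in the β-TCP libraries and 0.933%, 0.665% and 0.520% in the Control libraries. The part of macrophage RNA in the differences of Erp29, Bcap31 and Herpud1 was not tested.

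**Figure D2:**
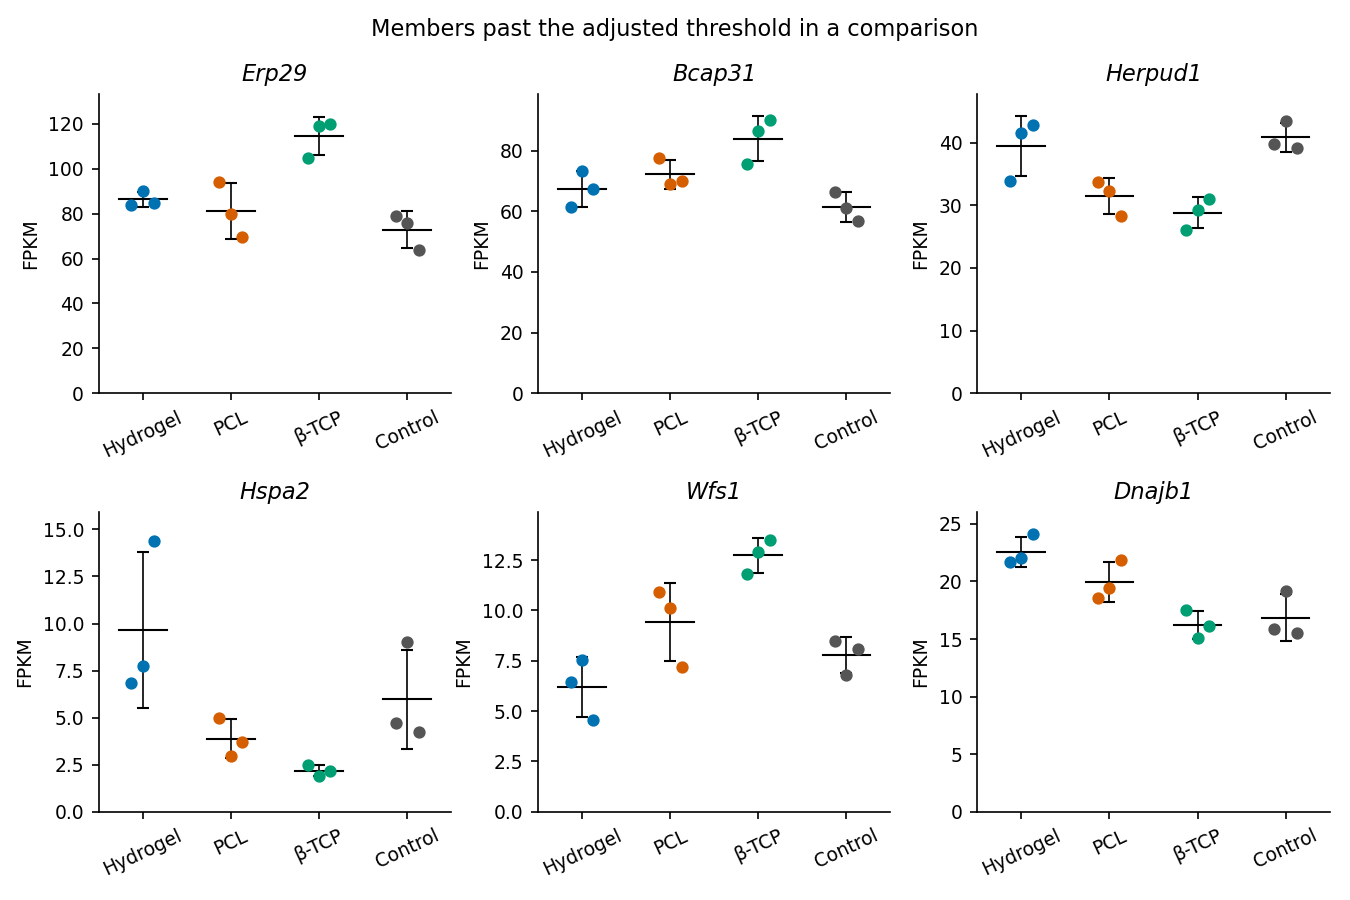
FPKM of 6 members in each library (points) with the group mean (line) and SD (bar), groups on the horizontal axis with Control last. Erp29 and Bcap31 are above and Herpud1 below all Control libraries in β-TCP, and for Hspa2, Wfs1 and Dnajb1 the β-TCP libraries lie apart from the Hydrogel libraries.

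By unadjusted p under 0.05, 12 members were higher in β-TCP than in Control (8.39%, against 14.7% of all tested genes) and 3 were lower (2.10%, against 3.25%). Next after the called genes by p came Fbxo6, a ubiquitin ligase subunit that binds glycans (log2 fold change 0.53, adjusted p = 0.0611), Edem1, a lectin that hands misfolded glycoproteins to ERAD (0.51, adjusted p = 0.0683) and Nfe2l2, a transcription factor of the oxidative stress response (0.52, adjusted p = 0.0703, all by limma). These 3 genes were picked after their values were seen. The study's own threshold, an unadjusted p under 0.05 with a fold above 2 or below 0.5, was met by 2 members (1.40%), against 3.51% of all tested genes, and these were Hsp90aa1 and Hspa2. The count was 1 without Control 1, Control 2, β-TCP 1 or β-TCP 2.

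Hsp90aa1, the stress-inducible cytosolic Hsp90, was at 9.91, 21.2 and 4.58 FPKM in the β-TCP libraries and 3.98, 5.06 and 3.28 FPKM in the Control libraries. β-TCP 3 fell within the Control range, so the groups overlapped (log2 fold change 1.13, SE 0.481, unadjusted p = 0.0397, adjusted p = 0.244, limma). PCL 2, at 18.3 FPKM, was the only other library above 10 FPKM.

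The sensors of the unfolded protein response gave no call against Control. Ern1, the sensor that splices Xbp1, was at 4.84, 5.89 and 5.81 FPKM in β-TCP and 5.83, 4.75 and 4.32 FPKM in Control, with overlapping groups. Eif2ak3, the sensor that halts translation, was at 12.8, 12.4 and 12 FPKM in β-TCP and 17.4, 20.5 and 13.2 FPKM in Control, with no overlap (log2 fold change -0.41, unadjusted p = 0.023). Atf6, the sensor cut in the Golgi, was at 21.7, 23.4 and 22.1 FPKM in β-TCP and 19.6, 19.0 and 15.9 FPKM in Control, again with no overlap (0.29, unadjusted p = 0.0226, limma).

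Downstream of the sensors, Herpud1 fell as given above, while the factors Atf4 and Ddit3 gave no call. Atf4, the factor translated when Eif2ak3 is active, was at 173, 180 and 173 FPKM in β-TCP and 193, 217 and 191 FPKM in Control. Ddit3, the cell death factor that Atf4 induces, was at 8.71, 9.06 and 8.83 FPKM in β-TCP and 10.2, 10.5 and 7.47 FPKM in Control. Neither passed the adjusted threshold, although the β-TCP libraries were all below Control for Atf4, and Derl3, an ERAD membrane protein whose window holds an ERSE, was at or under 1.43 FPKM in every library.

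The comparison of Hydrogel with Control asked the same of the gelatin scaffold. No member changed past the adjusted threshold, while the lumenal folding genes were on the low side and the cytosolic chaperones on the high side of Control. The 8 lumenal Hsp70 and Hsp90 genes were all lower in Hydrogel, with a median log2 fold change of -0.15, and the 13 tested cytosolic chaperones were all higher, with a median of 0.25. The medians were 0.02 over the 143 members and 0.14 over all tested genes.

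In this comparison 0 members passed an adjusted p under 0.05 by limma and 0 by limma-voom, against 0.00792% of all tested genes by limma. The study's threshold was met by 0 members, against 2.29%, although 5 met it without Control 2 and 4 without Hydrogel 2. By unadjusted p under 0.05 (limma), 2 members were higher (1.40%, against 8.62%) and 4 were lower (2.80%, against 6.37%).

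Dnajb1, a cytosolic Hsp40 that feeds clients to Hsp70, was at 21.7, 22.0 and 24.1 FPKM in Hydrogel and 15.9, 19.2 and 15.5 FPKM in Control. All Hydrogel libraries were higher (log2 fold change 0.41, SE 0.114, unadjusted p = 0.00488, adjusted p = 0.312, limma). Sec61g, the small gamma subunit of the channel, was at 211, 172 and 222 FPKM in Hydrogel and 140, 155 and 129 FPKM in Control, also without overlap (0.50, SE 0.184, unadjusted p = 0.0199, adjusted p = 0.312, limma).

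The 4 lower genes belong to the secretory side. Ckap4, a membrane protein of the reticulum sheets whose window holds the Xbp1 element core, was at 42.8, 48.8 and 29.8 FPKM in Hydrogel and 66.1, 47.9 and 110 FPKM in Control (log2 fold change -0.81, SE 0.277, unadjusted p = 0.0143, adjusted p = 0.312, limma). Rrbp1, a ribosome receptor, was at 72.1, 79.3 and 50.5 FPKM in Hydrogel and 98.7, 73.4 and 130 FPKM in Control (-0.56, SE 0.223, unadjusted p = 0.0294). The groups overlapped in both genes, through Hydrogel 2 and Control 2.

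Hspa5 (BiP), the main lumenal Hsp70 and a standard readout of the unfolded protein response, was at 240, 263 and 237 FPKM in Hydrogel and 282, 268 and 340 FPKM in Control. The groups did not overlap (log2 fold change -0.26, SE 0.110, unadjusted p = 0.0388, adjusted p = 0.312, limma). The fourth gene, Sec31a, an outer coat subunit of COPII, was at 41.1, 45.9 and 34.4 FPKM in Hydrogel and 52.5, 46.3 and 58.2 FPKM in Control, a separation of less than 1 FPKM between the nearest libraries (-0.37, unadjusted p = 0.0467).

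Much of the shift in the roles rested on Control 3. Without that library the median log2 fold change of the translocon genes in Hydrogel against Control was -0.004, against -0.16 with it, and that of the oligosaccharyltransferase genes was -0.01, against -0.12. The median of the cytosolic chaperones was 0.15 without Control 3 and 0.39 without Control 2. The lumenal Hsp70 and Hsp90 genes stayed lower in 8 of 8 without Control 3 (median -0.09), and their median was -0.23 without Control 2. They were also lower in 8 of 8 under median-of-ratios scaling, under quantile normalization and with hemoglobins left out, whereas the count of cytosolic chaperones that were higher was 10, 11 and 13 of 13 under those scalings. Median-of-ratios scaling lowered the median of all genes to 0.01 and quantile normalization to 0.02 in this comparison, and the members' median lay 0.14 and 0.12 below it.

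**Figure D3:**
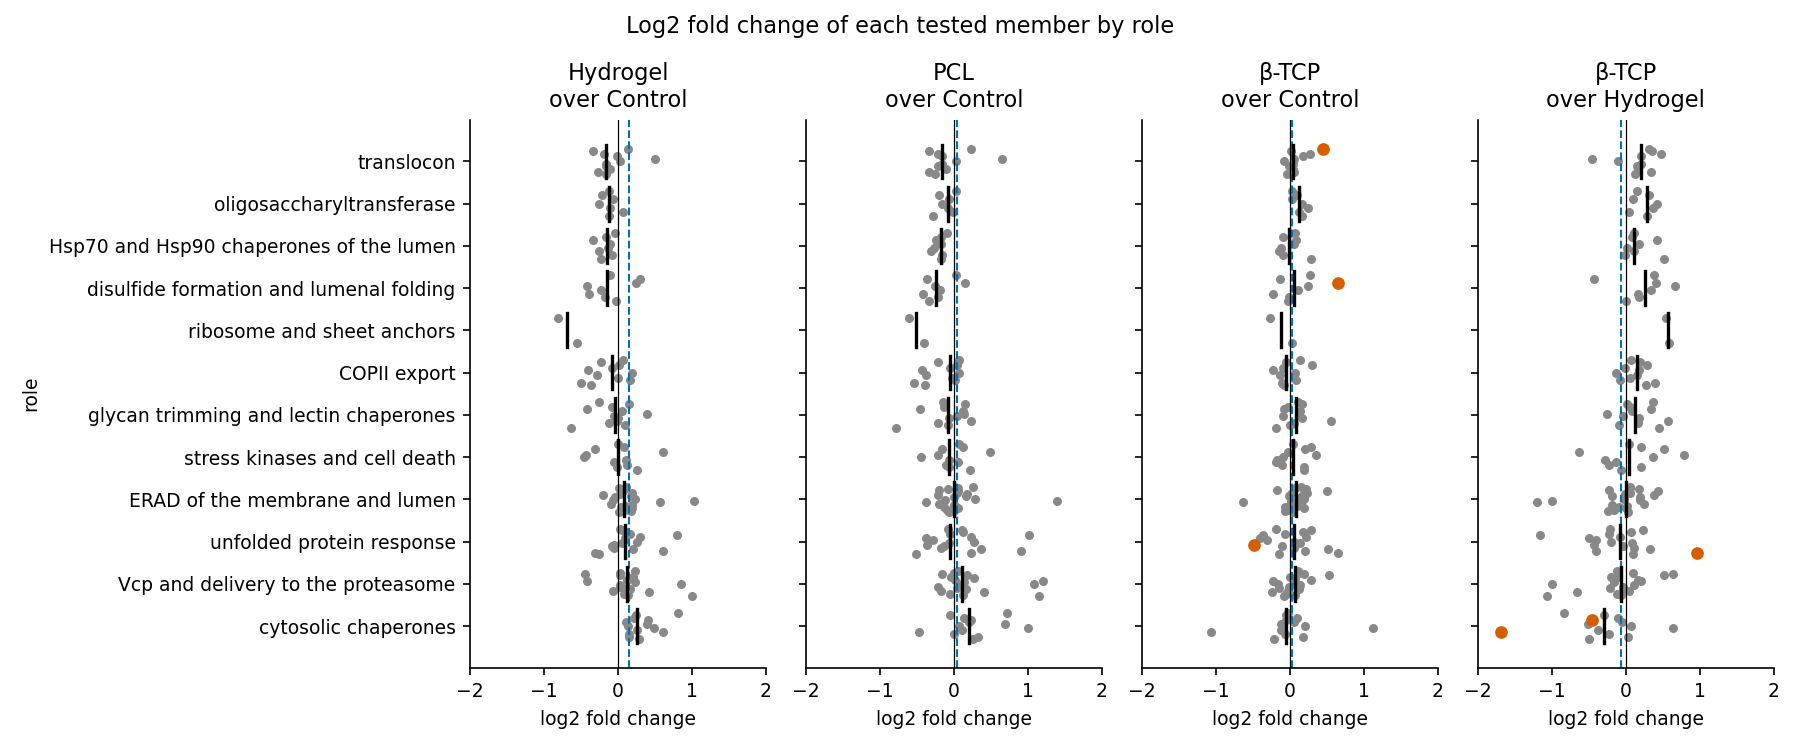
Log2 fold change of each tested member (points) by role, with the median of the role (bar), in 4 comparisons, with members past the adjusted threshold in orange and the median of all tested genes as a dashed line. In Hydrogel against Control the 8 lumenal Hsp70 and Hsp90 genes lie below 0 and the 13 cytosolic chaperones above it, and in β-TCP against Hydrogel 7 of 8 lumenal genes lie above 0 and 10 of 13 cytosolic chaperones below it.

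The comparison of PCL with Control shares its Control libraries with the 2 above, and the lumenal genes were again low. All 8 lumenal Hsp70 and Hsp90 genes were lower in PCL (median log2 fold change -0.18), 6 of 8 disulfide genes were lower (median -0.24) and 10 of 13 cytosolic chaperones were higher (median 0.20). Without Control 3 these medians were -0.09, -0.11 and 0.08, and without PCL 1 they were -0.28, -0.32 and 0.28. Over the 143 members the median was -0.05, and it was 0.04 over all tested genes.

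No member passed the adjusted threshold (0 by limma and 0 by limma-voom, against 0.277% of all tested genes by limma). By unadjusted p under 0.05 (limma), 9 members were higher (6.29%, against 11.1%) and 11 were lower (7.69%, against 7.34%). The study's threshold was met by 3 members (2.10%, against 3.64%), among them Eif2ak1 and Svip.

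Xbp1, the transcription factor that Ern1 activates and that itself carries an ERSE, had the smallest p. It was at 70.6, 73.5 and 53.8 FPKM in PCL and 94.9, 85.7 and 101 FPKM in Control, without overlap (log2 fold change -0.51, SE 0.129, unadjusted p = 0.0024, adjusted p = 0.119, limma). It was at 80.6, 81.7 and 73.2 FPKM in Hydrogel and 77.9, 87.1 and 87.8 FPKM in β-TCP, so PCL 3 was the lowest library.

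Sec61g was higher in PCL, at 180, 199 and 306 FPKM, against 140, 155 and 129 FPKM in Control (log2 fold change 0.65, SE 0.184, unadjusted p = 0.00489, adjusted p = 0.154, limma). Hspa5 was lower, at 252, 240 and 219 FPKM in PCL, against 282, 268 and 340 FPKM in Control (-0.32, SE 0.110, unadjusted p = 0.0152, adjusted p = 0.201, limma). Neither gene overlapped between the groups. Hsp90b1 (Grp94), the lumenal Hsp90, was at 300, 239 and 202 FPKM in PCL and 294, 279 and 308 FPKM in Control, where PCL 1 overlapped Control.

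Eif2ak1 and Svip had large folds and a large spread. Eif2ak1, the heme-regulated kinase that silences translation in red cell precursors, was at 54.3, 71.6 and 114 FPKM in PCL and 41.8, 60.3 and 20.5 FPKM in Control (log2 fold change 1.01, SE 0.391, adjusted p = 0.232, limma). Svip, a small inhibitor of ERAD that binds Vcp, was at 8.37, 11.7 and 22.2 FPKM in PCL and 7.05, 8.82 and 0.936 FPKM in Control (1.39, SE 0.578, adjusted p = 0.251, limma). In both genes the groups overlapped, PCL 3 was the highest of all 12 libraries, and Control 3 the lowest.

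These libraries are also the extremes of hemoglobin RNA, at 25.8% of the FPKM in PCL 3 and 1.03% in Control 3. Within each of the 4 groups the 3 libraries ranked by Eif2ak1 in the same order as by their hemoglobin share, and by Svip in every group except Hydrogel. Sec61g gave this order in every group except β-TCP, and it too was highest in PCL 3 and lowest in Control 3. The deubiquitinase Yod1, which works with Vcp, followed the same order at its ends, with 39.8 FPKM in PCL 3 and 4.17 FPKM in Control 3. The ubiquitin ligase Park2 (parkin) was highest in PCL 3, at 22.4 FPKM, but lowest in Hydrogel 1, at 0.36 FPKM, a library with 18% hemoglobin. Of 18 erythroid markers 16 passed the filter, and 16 of these 16 were higher in PCL than in Control, with a median log2 fold change of 2.32. The erythroid markers summed to 9.95%, 15.7% and 24.4% of the FPKM in PCL and 8.44%, 13.5% and 0.987% in Control, and embryonic Hbe2 was listed at 0 in all libraries. The part of erythroid RNA in the folds of Eif2ak1 and Svip, and in those of Sec61g in PCL and Hydrogel, was not tested. Without Control 3, and likewise without PCL 3, 0 members met the study's threshold, while 6 did without Control 2 and 5 without PCL 1.

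**Figure D4:**
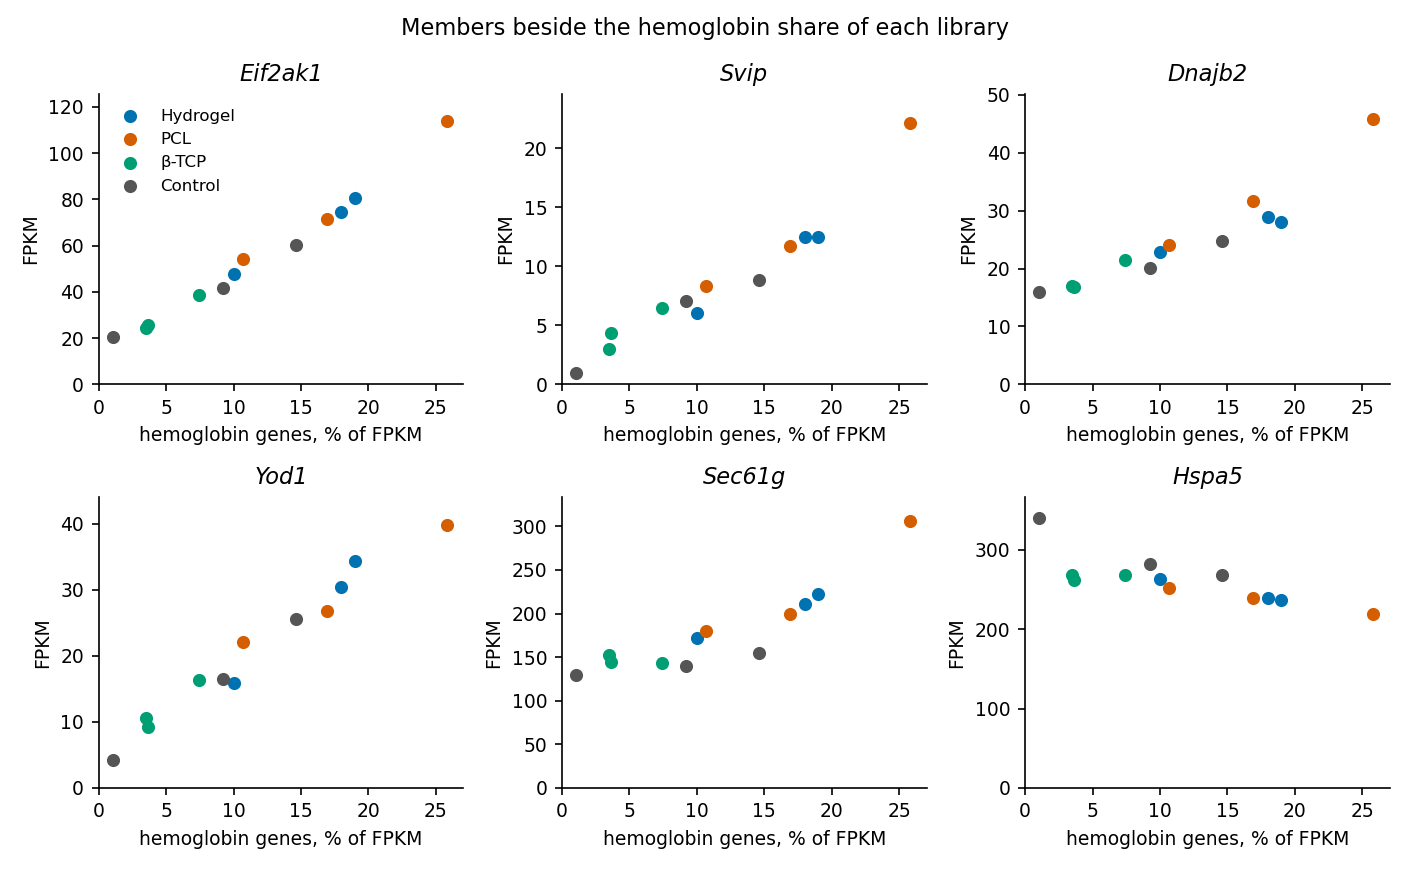
FPKM of 6 members (vertical axis) against the share of FPKM in hemoglobin genes (horizontal axis, %), 1 point per library in the color of its group. PCL 3, with 25.8% hemoglobin, has the highest Eif2ak1 and Svip (114 and 22.2 FPKM) and Control 3, with 1.03%, the lowest (20.5 and 0.936 FPKM).

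The comparison of β-TCP with Hydrogel set the ceramic against the gelatin scaffold. Hspa2, an Hsp70 best known from male germ cells, and Dnajb1 fell in β-TCP, and Wfs1 (wolframin), a membrane glycoprotein of the reticulum that restrains Atf6, rose. They were the 3 of 143 members (2.10%) past the adjusted threshold, against 6.13% of all tested genes. On recovered fragments limma-voom called the same 3 genes, at adjusted p = 0.0224 for Hspa2, 0.0214 for Wfs1 and 0.0481 for Dnajb1.

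Hspa2 was at 2.48, 1.88 and 2.18 FPKM in the β-TCP libraries, against 6.83, 7.76 and 14.4 FPKM in the Hydrogel libraries. The groups were far apart (log2 fold change -1.68, SE 0.298, adjusted p = 0.015, limma). PCL was at 5.0, 2.97 and 3.68 FPKM and Control at 4.69, 9.0 and 4.23 FPKM, so β-TCP was below every library of the other groups, and Control 2 reached the Hydrogel range. Against Control the difference missed the threshold (-1.07, adjusted p = 0.0685, limma).

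Wfs1 was at 11.8, 12.9 and 13.5 FPKM in the β-TCP libraries, against 6.46, 7.52 and 4.56 FPKM in the Hydrogel libraries. No library of one group entered the range of the other (log2 fold change 0.96, SE 0.183, adjusted p = 0.0191, limma). Control was at 8.46, 6.77 and 8.10 FPKM and PCL at 10.9, 10.1 and 7.21 FPKM.

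Dnajb1 was at 17.5, 15.1 and 16.1 FPKM in the β-TCP libraries, against 21.7, 22.0 and 24.1 FPKM in the Hydrogel libraries (log2 fold change -0.45, SE 0.114, adjusted p = 0.0451, limma). The groups did not overlap, and β-TCP lay within the range of the Control libraries apart from β-TCP 2. With the mean of β-TCP 2 and 3 as 1 library, the adjusted p was 0.0753 for Hspa2, 0.0904 for Wfs1 and 0.18 for Dnajb1 (limma). Called members numbered 5 without β-TCP 1, 1 without Hydrogel 1, and 0 without Hydrogel 3, β-TCP 2 or β-TCP 3.

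Neutrophil and macrophage markers differed between the same libraries. The 13 neutrophil markers summed to 0.476%, 0.382% and 0.385% of the FPKM in β-TCP and 0.722%, 0.607% and 0.982% in Hydrogel, while the 11 macrophage markers summed to 0.947%, 2.14% and 2.15% in β-TCP and 0.733%, 1.17% and 0.773% in Hydrogel. Their part in the 3 calls was not tested.

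At an unadjusted p under 0.05, 20 members were higher in β-TCP than in Hydrogel (14.0%, against 16.1% of all tested genes) and 15 were lower (10.5%, against 18.2%). The study's threshold was met by 4 members (2.80%, against 8.38%), among them Hspa2, Eif2ak1 and Syvn1. Syvn1 (Hrd1), the central ubiquitin ligase of ERAD, was at 28.6, 21.8 and 22.5 FPKM in β-TCP and 46.4, 49.4 and 79.7 FPKM in Hydrogel, without overlap (log2 fold change -1.20, SE 0.405, adjusted p = 0.0824, limma). It varied as widely among the Control libraries, at 43.1, 66.4 and 18.8 FPKM. Without Hydrogel 2 the count was 7, and without Hydrogel 3 it was 2. Hemoglobin RNA did not overlap either, at 3.49% to 7.41% of the FPKM in β-TCP and 10% to 19% in Hydrogel, and 15 of the 16 tested erythroid markers were lower in β-TCP (median log2 fold change -1.88), whose part in the fold of Eif2ak1 was not tested.

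Several roles lay on one side of 0. The 7 oligosaccharyltransferase genes were all higher in β-TCP (median log2 fold change 0.29), as were 9 of 11 translocon genes (0.20), 7 of 8 disulfide genes (0.25) and 7 of 8 lumenal Hsp70 and Hsp90 genes (0.11), and 10 of 13 cytosolic chaperones were lower (-0.29). Of the COPII coat genes 8 of 11 were higher (0.16), and the ERAD genes were divided, with 12 higher and 10 lower (0.01). The members' median was 0.06 and that of all tested genes -0.06. The median of the oligosaccharyltransferase genes stayed between 0.19 and 0.34 and that of the cytosolic chaperones between -0.39 and -0.20 when 1 library was left out, and both kept their side of 0 under median-of-ratios scaling, quantile normalization and with hemoglobins left out. At an unadjusted p under 0.05 (limma), 2 oligosaccharyltransferase, 2 translocon, 3 disulfide and 2 lumenal Hsp70 and Hsp90 genes were higher, against 16.1% of all tested genes. In the translocon 1 gene was lower at that level. None of these passed the adjusted threshold. Of the cytosolic chaperones 6 were lower at that level, against 18.2% of all tested genes, and 2 passed the adjusted threshold. Against Control the oligosaccharyltransferase genes gave no stable direction, since 7 of 7 were higher in β-TCP (median 0.12) but the median was -0.01 under quantile normalization and -0.02 with hemoglobins left out.

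Rpn2, a structural subunit of oligosaccharyltransferase, was at 156, 153 and 156 FPKM in β-TCP and 120, 131 and 97.9 FPKM in Hydrogel, without overlap (log2 fold change 0.42, SE 0.135, adjusted p = 0.0761, limma). Its partner Rpn1 was at 175, 162 and 161 FPKM in β-TCP and 164, 167 and 137 FPKM in Hydrogel, with overlap. P4hb, the disulfide isomerase that is also the beta subunit of prolyl 4-hydroxylase, was at 340, 445 and 447 FPKM in β-TCP and 267, 309 and 204 FPKM in Hydrogel (0.67, SE 0.229, adjusted p = 0.0853, limma). The β-TCP libraries were higher than all Hydrogel libraries, while the Control libraries, at 326, 262 and 482 FPKM, spanned nearly both ranges.

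The lectin chaperones moved unequally. Calr (calreticulin), which holds glycoproteins in the lumen, was at 591, 651 and 632 FPKM in β-TCP and 494, 525 and 437 FPKM in Hydrogel, without overlap (log2 fold change 0.37, adjusted p = 0.0784, limma). Its membrane-bound partner Canx (calnexin) was at 141, 140 and 137 FPKM in β-TCP and 139, 133 and 141 FPKM in Hydrogel, with overlap (0.02, SE 0.081). Pdia3, the disulfide isomerase that works with both, was at 310, 352 and 352 FPKM in β-TCP and 258, 303 and 244 FPKM in Hydrogel, all higher (0.34). Capn2, a calcium-activated protease of the cell death branch, was at 49.1, 69.2 and 68.0 FPKM in β-TCP and 36.5, 43.1 and 27.8 FPKM in Hydrogel (0.78, SE 0.218, adjusted p = 0.0592, limma), again without overlap.

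**Figure D5:**
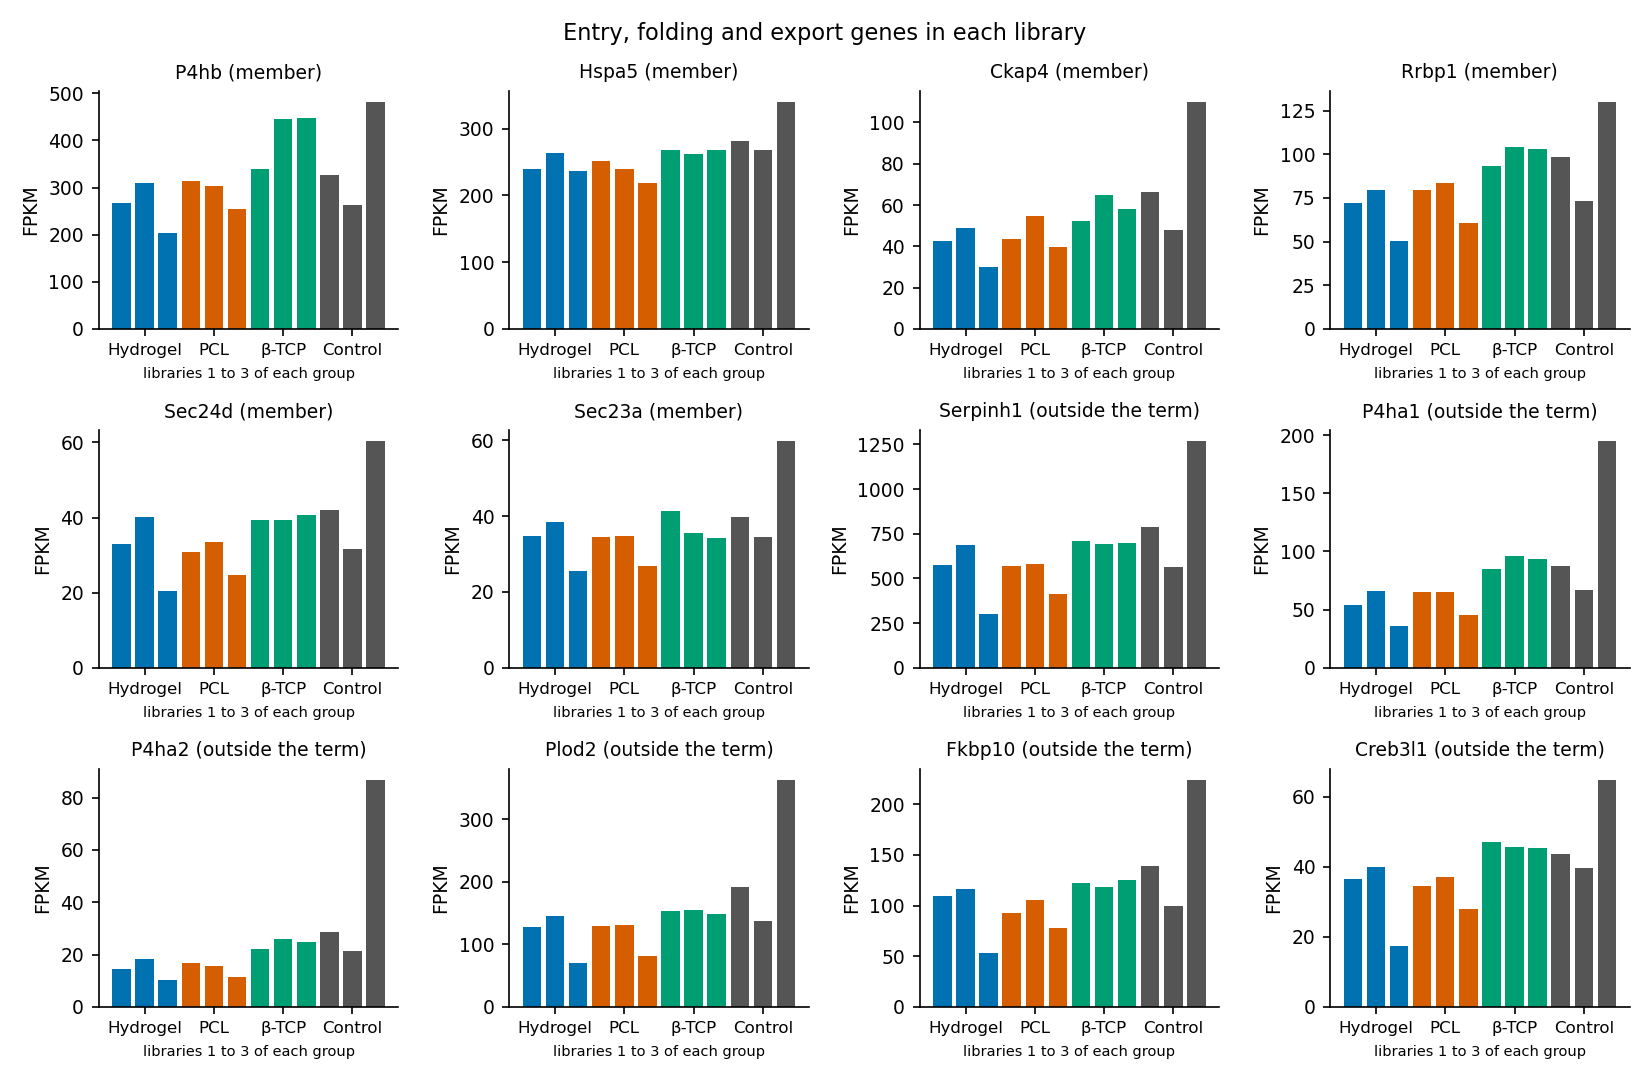
FPKM of 12 folding and export genes, members and genes outside the term, with 1 bar per library and the color of its group, Control last. Hspa5 lies highest in Control (268 to 340 FPKM), and P4hb is higher in β-TCP (340 to 447 FPKM) than in Hydrogel (204 to 309 FPKM) while Control spans 262 to 482 FPKM.

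Abundant members outside the lumen were read in the same comparison. Hsp90ab1, the constitutive cytosolic Hsp90, was at 491, 480 and 484 FPKM in β-TCP, against 564, 600 and 731 FPKM in Hydrogel, without overlap (log2 fold change -0.37, unadjusted p = 0.046, adjusted p = 0.14, limma). Hspa8, the constitutive cytosolic Hsp70, was at 366, 368 and 381 FPKM in β-TCP and 390, 440 and 475 FPKM in Hydrogel. Vcp, the segregase that pulls ERAD clients out of the membrane, varied little, from 108 FPKM in Control 3 to 136 FPKM in PCL 1 and Hydrogel 3.

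Steady levels were also seen for the ubiquitin-conjugating enzymes Ube2d3 and Ube2d2 and for Rad23b. Ube2d3 lay between 94.5 and 119 FPKM over the 12 libraries, Ube2d2 between 77.4 and 120 FPKM, and the shuttle Rad23b between 80.6 and 95.6 FPKM. Bax, which opens the outer mitochondrial membrane in apoptosis, lay between 38.2 and 52.4 FPKM, with the β-TCP libraries (50.7, 48.4 and 52.4 FPKM) above the Control libraries (44.4, 41.0 and 38.2 FPKM; log2 fold change 0.29, unadjusted p = 0.0131, adjusted p = 0.127, limma).

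Of the 11 tested COPII coat genes, 6 were highest in Control 3 and 3, Sec23b, Sec24b and Sec24c, were lowest there. Sec24d, a cargo adaptor needed for collagen export in fish and people, was at 32.9, 40.2 and 20.5 FPKM in Hydrogel, 30.7, 33.5 and 24.8 FPKM in PCL, 39.3, 39.4 and 40.6 FPKM in β-TCP and 42.1, 31.5 and 60.4 FPKM in Control. Sec23a, its inner coat partner, was at 34.7, 38.4 and 25.5 FPKM in Hydrogel, 34.4, 34.7 and 26.9 FPKM in PCL, 41.2, 35.6 and 34.3 FPKM in β-TCP and 39.7, 34.4 and 59.8 FPKM in Control. Control 3 was the highest and Hydrogel 3 the lowest library for both genes. Sar1a, the GTPase that starts the coat, lay between 67.7 and 113 FPKM at the same pair of libraries, whereas Sec13, an outer coat subunit, lay between 64.9 and 81.3 FPKM.

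Among the translocon genes Ssr4, a subunit of the translocon-associated complex, was at 138, 139 and 120 FPKM in Hydrogel, 129, 121 and 122 FPKM in PCL, 151, 148 and 133 FPKM in β-TCP and 147, 119 and 184 FPKM in Control. It overlapped between Control and each scaffold, whereas Sec61g overlapped Control in β-TCP (143, 144 and 152 FPKM) but not in Hydrogel or PCL. Of the unassigned genes, Tram1, which helps nascent chains enter the membrane, lay between 83.7 and 110 FPKM, and the ubiquitin ligase Rnf185 between 9.46 and 11.6 FPKM.

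The scaffolds compared with each other without Control gave few calls for the members beyond those above. In PCL against Hydrogel 0 members passed the adjusted threshold by limma and 0 by limma-voom, against 0.103% of all tested genes by limma. By unadjusted p under 0.05 (limma), 1 member was higher (0.699%, against 2.89%) and 7 were lower (4.90%, against 5.34%), and 1 met the study's threshold (0.699%, against 0.768%), with 2 without Hydrogel 1, 3 without PCL 1 and 0 without PCL 2. The one member past the study's threshold was Hspa2, at 5.0, 2.97 and 3.68 FPKM in PCL and 6.83, 7.76 and 14.4 FPKM in Hydrogel (log2 fold change -1.08, SE 0.298, adjusted p = 0.479, limma). The one higher member was Wfs1 (0.54, unadjusted p = 0.0136), with PCL 3 inside the Hydrogel range, and Eif2ak3 was lower, at 14.7, 11.9 and 11.5 FPKM in PCL and 17.6, 16.8 and 19.7 FPKM in Hydrogel, without overlap (-0.48, unadjusted p = 0.0104, adjusted p = 0.588, limma).

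In β-TCP against PCL the adjusted threshold was likewise passed by 0 members by limma and 0 by limma-voom, against 0.657% of all tested genes by limma. By unadjusted p under 0.05 (limma), 17 members were higher (11.9%, against 13.1%) and 10 were lower (6.99%, against 9.34%), and 4 met the study's threshold (2.80%, against 4.48%), among them Eif2ak1, Svip and Yod1. Without PCL 3 the last count was 1, and it was 2 without β-TCP 2 or β-TCP 3. Erp29 had the smallest p, with 105, 119 and 120 FPKM in β-TCP and 94.1, 80.0 and 69.6 FPKM in PCL (log2 fold change 0.50, unadjusted p = 0.00276, adjusted p = 0.0986, limma). Dnajb2, a ubiquitin-binding Hsp40, was at 21.4, 16.8 and 17.0 FPKM in β-TCP and 24.1, 31.6 and 45.9 FPKM in PCL (-0.81, unadjusted p = 0.00493, adjusted p = 0.115, limma), and Eif2ak1 was at 38.5, 25.6 and 24.3 FPKM in β-TCP and 54.3, 71.6 and 114 FPKM in PCL (-1.38, adjusted p = 0.118, limma). No library of β-TCP overlapped PCL in these 3 genes, and hemoglobin RNA was 3.49% to 7.41% of the FPKM in β-TCP and 10.7% to 25.8% in PCL, whose part in the folds of Eif2ak1 and Dnajb2 was not tested.

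The genes with an ERSE or ERSE-II in their window can be read as one set across the comparisons. There were 11, all tested: Calr, Canx, Derl3, Dnajb11, Dnajc3, Ero1b, Herpud1, Hsp90b1, Hspa5, Hyou1 and Xbp1. Their median log2 fold change was -0.08 in Hydrogel against Control (3 higher and 8 lower), -0.20 in PCL against Control (1 higher and 10 lower) and -0.13 in β-TCP against Control (4 higher and 7 lower), with 1 call, Herpud1. These 3 comparisons share the Control libraries. Against PCL, 10 of the 11 were higher in β-TCP (median 0.16).

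Collagen folding and modification genes, which act in the reticulum but are outside the annotation term, gave larger differences. Of 23 listed genes 22 were tested, and all 22 were lower in Hydrogel than in Control (median log2 fold change -0.73), 21 were lower in PCL (median -0.62) and 15 in β-TCP (median -0.14). The medians of all tested genes were 0.14 in Hydrogel, 0.04 in PCL and 0.03 in β-TCP. At an unadjusted p under 0.05 (limma), 15 of the 22 were lower in Hydrogel, against 6.37% of all tested genes, and 9 in PCL, against 7.34%. In these 2 comparisons 0 passed the adjusted threshold by limma or limma-voom. Without Control 3 the medians were -0.42, -0.31 and 0.12, so that the direction of the β-TCP comparison turned.

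Serpinh1 (Hsp47), the collagen chaperone, shows the spread, at 578, 688 and 303 FPKM in Hydrogel, 567, 580 and 411 FPKM in PCL, 707, 693 and 699 FPKM in β-TCP and 789, 564 and 1270 FPKM in Control. P4ha1, the alpha subunit that pairs with P4hb, was at 54.1, 66.4 and 35.8 FPKM in Hydrogel, 65.1, 65.5 and 45.2 FPKM in PCL, 84.8, 95.8 and 93.6 FPKM in β-TCP and 87.4, 66.6 and 195 FPKM in Control. Control 3 was the highest library for both, and for P4ha2, Plod2, Fkbp10 and Creb3l1, at 86.8, 363, 224 and 64.8 FPKM. Hydrogel 3 was the lowest library for all 6 of these genes.

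The called genes of the 22 tested in the collagen folding list were P3h2 and Tmem38b. In β-TCP against Control 1 was lower and 1 higher, where 4.78% of all tested genes were called. In β-TCP against Hydrogel 1 was higher, where 6.13% were called. The calls against Control were lost in 11 of 17 alternatives for P3h2 and in 12 of 17 for Tmem38b. P3h2, a prolyl 3-hydroxylase, fell in β-TCP to 2.22, 0.809 and 0.436 FPKM, against 5.19, 5.55 and 33.5 FPKM in Control (log2 fold change -2.46, SE 0.565, adjusted p = 0.0381, limma). Tmem38b, a cation channel of the reticulum that is mutated in a form of brittle bone disease in people, rose in β-TCP to 8.54, 9.19 and 9.70 FPKM, against 6.11, 5.31 and 5.86 FPKM in Control (0.59, SE 0.136, adjusted p = 0.0391, limma), and was also higher than in Hydrogel, at 6.54, 5.75 and 4.34 FPKM (0.65, adjusted p = 0.0251, limma). The difference of Tmem38b from Hydrogel was not called without Hydrogel 3, β-TCP 2 or β-TCP 3, or with β-TCP 2 and 3 averaged (adjusted p = 0.0906, 0.111, 0.123 and 0.118, limma).

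Known targets of the unfolded protein response that the term does not hold gave 15 tested genes with 2 calls against Control. These were 1 in PCL, where 0.277% of all tested genes were called, and 1 in β-TCP, where 4.78% were. Slc7a11, the cystine carrier that Atf4 and Nfe2l2 induce, rose in PCL to 7.54, 4.57 and 2.54 FPKM, against 0.455, 0.536 and 0.133 FPKM in Control (log2 fold change 2.02, SE 0.327, adjusted p = 0.0356, limma). Chac1, a glutathione-degrading enzyme that Atf4 and Ddit3 induce, fell in β-TCP to 2.14, 2.40 and 1.62 FPKM, against 6.10, 6.0 and 3.13 FPKM in Control (-0.96, SE 0.235, adjusted p = 0.0453, limma). The groups did not overlap in either gene. Of the 13 signal recognition and signal peptidase genes, Srp14, a subunit of the signal recognition particle, rose in β-TCP to 85.7, 91.6 and 89.0 FPKM, against 64.4, 69.3 and 64.8 FPKM in Control (0.42, SE 0.103, adjusted p = 0.0459, limma). It was the 1 called gene of these 13 in that comparison, where 4.78% of all tested genes were called.

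Genes of the secreted matrix were read beside the collagen folding genes. Fibrillar collagen and bone matrix genes summed to 4.55%, 5.12% and 1.99% of the FPKM in Hydrogel, 4.76%, 4.47% and 2.76% in PCL, 6.15%, 5.60% and 5.61% in β-TCP and 6.28%, 4.65% and 11.3% in Control. Against Control their median log2 fold change was -0.84 in Hydrogel, -0.67 in PCL and -0.40 in β-TCP, with 9, 10 and 9 of 10 genes lower. The osteoblast markers had medians of -0.62, -0.54 and -0.35, with 8, 9 and 9 of 9 lower. Cartilage matrix genes were lower in every scaffold group than in Control, in 12 of 12 tested genes each. In β-TCP their median log2 fold change was -3.95, against -0.14 for the collagen folding genes. There 6 of the 12 fell past the adjusted threshold, which 4.78% of all tested genes passed in either direction. Among them were the growth plate collagen Col10a1 (log2 fold change -4.07, adjusted p = 0.0381) and the cartilage matrix protein Comp (-4.21, adjusted p = 0.0481, limma). The part of chondrocyte and osteoblast RNA in the lumenal folding genes of Control 3, and in the collagen folding genes, was not tested.

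Plasma cells, the other heavy secretors of marrow, were read from 6 listed genes, which did not move together. Prdm1, the transcription factor that drives plasma cell and macrophage maturation, rose in β-TCP to 19.0, 15.2 and 15.6 FPKM, against 9.14, 6.30 and 4.99 FPKM in Control (log2 fold change 1.20, adjusted p = 0.0309, limma). The surface proteoglycan Sdc1 rose to 109, 154 and 156 FPKM, against 63.4, 50.3 and 71.5 FPKM in Control (1.16, adjusted p = 0.0406, limma). The other 4 did not pass the threshold, which 4.78% of all tested genes passed in this comparison. Of all 6 genes 3 were higher and 3 lower (median 0.00). Against Hydrogel, where 6.13% of all tested genes were called, Prdm1 and Sdc1 were again called higher in β-TCP. The other 4 were lower (median of the 6 -0.92). With β-TCP 2 and 3 averaged the calls of Prdm1 and Sdc1 against Hydrogel were lost (adjusted p = 0.0689 and 0.0787, limma). With β-TCP 2 and 3 averaged, 0 of the β-TCP calls named here outside the term (P3h2, Tmem38b, Chac1, Srp14, Col10a1, Comp, Prdm1 and Sdc1) passed against Control, and Slc7a11 in PCL was not called without Control 1, Control 2, Control 3, PCL 1 or PCL 2 (limma).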

How the data were processed

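RNA from 12 libraries (4 groups of 3) was analysed. The deposited values are FPKM that the authors obtained with Cufflinks after Trimmomatic trimming and HISAT2 alignment. Bowtie, DESeq, HTSeq and StringTie appear in the submitters' processing notes too, as does Rnor_6.0, and versions are not given in the sources used here. The library kit and sequencer differ between the paper's methods and the labels. FPKM are relative to each library's mapped fragments, of which hemoglobin takes a part that differs between libraries. Control 3, with 1.03% of its FPKM in hemoglobin genes, was the lowest library for 47.6% of all tested genes. Hydrogel 3, with 19.0%, was the highest for 30.4%. The part of hemoglobin RNA in the levels of other genes was not tested. Of the value columns, 3 matched no sample and were not used.

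Genes at 1 FPKM or more in at least 3 libraries were fitted on log2(FPKM + 1) with limma 3.58.1 (R 4.3.3), 1 mean per group over all 12 libraries and a mean-dependent prior, and p-values were adjusted over the 12633 genes. Fold changes are on that scale and understate low genes. All 18684 genes above 0 gave whole fragments within 0.01 (100.0%), which limma-voom used as an alternative.

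Named genes were the 2 most abundant of each role, called genes or the 3 smallest p, those past the study's threshold, and fixed lists. The annotation rule itself uses no measured value, but the term that defines the members, and the lists, were chosen with earlier results of these data known. Fits were tested on simulated data. Protein retention signals were not analysed here, and some genes are not reported here. Same-numbered libraries did not deviate together and were not paired.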

Additional observations from a re-analysis of the deposited data

How the results depend on the processing

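With 3 libraries a group, 1 library could make or end a call. Of 17 alternatives each, the adjusted p was above 0.05 in 7 for Erp29 (1.87e-06 to 0.123), 12 for Bcap31 (3.39e-05 to 0.213) and 9 for Herpud1 (4.29e-05 to 0.168) in β-TCP against Control, and in 4 for Hspa2 (0.000122 to 0.0767), 5 for Wfs1 (0.000108 to 0.0925) and 11 for Dnajb1 (0.000268 to 0.191) in β-TCP against Hydrogel (limma). Of the alternatives to the counts and medians over members 227 stayed close and 70 moved, and of those to single genes and shares 504 stayed, 33 newly passed the threshold, 166 lost it and 8 moved. No gene named for a call, a smallest p or the study's threshold reversed in the comparison that named it, in any alternative. Genes named only for their abundance or from the fixed lists were not checked for this. The medians over members, which lie near 0, changed sign in several alternatives, as given below. The causes were not tested.

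The median log2 fold change of members against Control in Hydrogel was -0.129 under median-of-ratios scaling, -0.097 under quantile normalization and -0.047 with hemoglobins left out. It was -0.143 under quantile normalization and -0.14 with hemoglobins left out in PCL, and -0.025, -0.052 and -0.089 under the 3 settings in β-TCP. It was 0.078 under median-of-ratios scaling in PCL against Hydrogel, and 0.128 under median-of-ratios scaling and -0.014 with hemoglobins left out in β-TCP against Hydrogel.

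With array weights, a fit that gave a convergence warning and a weight of 40.6 to Control 1 and 0.0439 to Control 3, the members past the adjusted threshold numbered 42 for Hydrogel, 79 for PCL and 78 for β-TCP against Control, 11 in PCL and 71 in β-TCP against Hydrogel, and 83 in β-TCP against PCL. Past the study's threshold there was 1 for each scaffold against Control and 4 in PCL against Hydrogel. In β-TCP against Control the adjusted count was 1 with hemoglobins left out, 0 in a fit of the 2 groups, 1 by limma-voom and 0 with β-TCP 2 and 3 averaged. In β-TCP against Hydrogel it was 8 under median-of-ratios scaling, 11 under quantile normalization, 29 in a fit of the 2 groups and 0 with the averaged libraries, and in β-TCP against PCL 12 in a fit of the 2 groups.

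The study's threshold was passed in PCL against Control by 1 member under quantile normalization, 1 with hemoglobins left out and 0 in a fit of the 2 groups. In β-TCP against Control it was passed by 1 with hemoglobins left out, 1 in a fit of the 2 groups and 1 by limma-voom, in PCL against Hydrogel by 0 under median-of-ratios scaling and 0 under quantile normalization, and in β-TCP against PCL by 2 with the averaged libraries.

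Same-numbered libraries correlated above 0.1 in 4 of 18 pairs (-0.612 to 0.469), and 2 of 12 libraries correlated best with their own number, so the replicate block only shares a number. With it, 1 member passed the adjusted threshold in β-TCP against Control, and the study's threshold was passed by 1 in PCL against Control and 2 in β-TCP against PCL.

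Leaving out 1 library at a time, the adjusted count ranged from 0 to 7 in β-TCP against Control, from 0 to 5 in β-TCP against Hydrogel and was 0 in the other 4 comparisons. The count past the study's threshold ranged from 0 to 5 for Hydrogel, 0 to 6 for PCL and 1 to 2 for β-TCP against Control, 0 to 3 in PCL and 2 to 7 in β-TCP against Hydrogel, and 1 to 6 in β-TCP against PCL.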
